A study of Mus musculus with 4 samples.

Results

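The nuclear genes for the proteins of the mitochondrial ribosome were examined for binding of SHP in mouse intestine. They were chosen by name as all protein-coding genes of the mouse RefSeq annotation whose symbol starts with Mrpl or Mrps followed by a digit, which gave 78 of 21887 protein-coding genes, 49 with a large subunit symbol (Mrpl) and 29 with a small subunit symbol (Mrps). SHP (small heterodimer partner, gene Nr0b2) is a nuclear receptor without a DNA-binding domain that reaches chromatin through other factors. Chromatin immunoprecipitation and sequencing (ChIP-seq) with an SHP antibody was done on jejunum and ileum of wild-type C57BL/6 mice (WT) and of SHP knockout mice (SHP-KO) on the C57BL/6 background, aged 8 to 12 weeks. Both groups were fasted for 12 h and refed normal chow for 4 h, so no fasted group was compared. Input and immunoprecipitated DNA made up 3 independent sets, each pooled from 3 mice, and 1 peak list per genotype was used. With no list per set, no value here has a replicate error and no test between genotypes was made. The whole tissue was used, so the cell types in which a site was bound cannot be told apart, and peak lists hold no RNA levels by which the tissue label could be checked against markers. A gene is called occupied when a wild-type summit, the highest point of a peak, lay within 5 kb of either gene end.

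The mitochondrial ribosome translates the few messages encoded by mitochondrial DNA, which specify core subunits of the respiratory chain and ATP synthase. Its RNAs come from mitochondrial DNA, while its proteins are encoded in the nucleus, made in the cytosol and imported. The small subunit reads the message, and the large subunit joins amino acids and sends the chain out through an exit tunnel at the inner membrane. Many of the proteins have a counterpart in bacterial ribosomes, and the others are specific to mitochondria. The symbols do not always give the subunit: Mrps30 and Mrps18a encode proteins that sit in the large subunit, and the Mrps36 protein is now placed in the alpha-ketoglutarate dehydrogenase complex.

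Promoter sequences of 6 genes are shown because they mark the extremes of the gene set. The first 4 genes have the highest enrichment values of occupied genes whose strongest counted summit lay within 300 bases of an annotated transcription start. Only summits within 5 kb of a gene end were counted, which leaves out a peak at the Mrps23 start. The last 2 are the genes without a summit that lay farthest from any, among those with a promoter sequence. Each runs 5′ to 3′ from 150 bases before to 30 bases after the annotated start, from RefSeq, assembly GRCm38.p6 (the coordinates of mm10). Capitals mark matches on either strand to 10 short motifs listed with the promoter results.
Mrpl48 (chr7:100607593-100607772, minus strand): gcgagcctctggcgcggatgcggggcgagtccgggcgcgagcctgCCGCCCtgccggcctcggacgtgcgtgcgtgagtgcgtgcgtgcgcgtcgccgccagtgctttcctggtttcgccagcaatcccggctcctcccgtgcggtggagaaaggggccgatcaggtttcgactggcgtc
Mrps15 (chr4:126046778-126046957, plus strand): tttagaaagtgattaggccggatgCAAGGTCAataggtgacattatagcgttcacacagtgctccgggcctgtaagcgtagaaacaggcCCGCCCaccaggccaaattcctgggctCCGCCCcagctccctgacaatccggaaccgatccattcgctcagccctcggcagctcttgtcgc
Mrps7 (chr11:115603990-115604169, plus strand): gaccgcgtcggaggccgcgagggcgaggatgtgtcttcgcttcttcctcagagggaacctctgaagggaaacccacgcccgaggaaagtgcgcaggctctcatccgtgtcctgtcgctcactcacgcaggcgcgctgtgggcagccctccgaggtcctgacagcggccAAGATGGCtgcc
Mrps14 (chr1:160195065-160195244, plus strand): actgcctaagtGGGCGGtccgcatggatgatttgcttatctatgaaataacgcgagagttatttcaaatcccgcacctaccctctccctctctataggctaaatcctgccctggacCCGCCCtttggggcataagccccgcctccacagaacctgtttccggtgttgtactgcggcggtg
Mrpl3 (chr9:105053118-105053297, plus strand): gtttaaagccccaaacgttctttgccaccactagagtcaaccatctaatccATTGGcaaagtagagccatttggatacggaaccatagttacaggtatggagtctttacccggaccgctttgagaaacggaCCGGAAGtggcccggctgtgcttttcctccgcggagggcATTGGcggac
Mrpl1 (chr5:96209965-96210144, plus strand): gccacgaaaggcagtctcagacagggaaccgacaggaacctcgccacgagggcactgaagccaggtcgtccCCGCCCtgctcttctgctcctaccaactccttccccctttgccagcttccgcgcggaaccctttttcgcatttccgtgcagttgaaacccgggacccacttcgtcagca
The Mrps15 stretch held CAAGGTCA, the extended hexamer read by monomeric nuclear receptors such as LRH-1, which begins 126 bases before the start, and the SHP summit lay 11 bases before the start. The YY1 motif AAGATGGC of Mrps7 begins at base 19 after the start. The ETS motif CCGGAAG of Mrpl3, a gene without a summit nearby, begins 19 bases before the start. A match describes letters in a window and is not evidence of binding.

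SHP summits lay near 33 of the 78 mitochondrial ribosomal protein genes (42.3%), while 26.4% of all protein-coding genes were occupied. The 95% exact binomial interval of the member share, 31.2 to 54.0, covers counting error only. It treats members as independent draws, though they are the whole named set read from 1 peak list, and is no test against the 26.4%. Large subunit symbols were occupied at 20 of 49 genes (40.8%) and small subunit symbols at 13 of 29 (44.8%). Within 1 kb of a gene end the counts were 16 of 49 (32.7%) and 13 of 29 (44.8%), against 20.7% of all protein-coding genes. With each summit given to its nearest gene only, they were 10 of 49 and 12 of 29, against 21.0%. Of the 46 genes with a bacterial counterpart 19 were occupied (41.3%), and of the 32 classed as specific to mitochondria 14 were (43.8%). The 32 include Mrps36 and the S18-related Mrps18b, both occupied. The difference between these groups was not tested. Within 1 kb of a gene end lay summits of 29 members (37.2%, against 20.7% of all protein-coding genes), within 10 kb of 36 (46.2%, against 30.5%) and within 50 kb of 50 (64.1%, against 48.2%). The knockout list, which held 7 peaks against 5775 in wild type, had no summit within 5 kb of a member and 0.0183% of all protein-coding genes with one. The nearest knockout summit was 658397 bp away, from Mrpl45. The knockout list was filtered differently, so the lists were not compared peak by peak.

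At 5 kb the share of occupied members was close to that of genes with CpG-rich promoters. No other promoter feature was matched. A promoter was called CpG-rich where its observed/expected CpG ratio, the number of CG pairs over the number its C and G content would give, was at least 0.6 in the 250 bases before and 50 after a start (the highest value over the starts of a gene). Promoter sequences were matched for 69 members, of which 64 (92.8%) were CpG-rich, against 50.9% of the 17492 protein-coding genes with a sequence. Among CpG-rich genes 27 of 64 members were occupied (42.2%), and 43.1% of all CpG-rich genes were. Of all genes with a ratio under 0.6, 9.67% were occupied. With summits within 1 kb of an annotated start counted, 25 of 64 CpG-rich members (39.1%) and 39.1% of all CpG-rich genes had one. Over all genes with a promoter sequence those shares were 25 of 69 members (36.2%) and 22.1%. The 5 members with a ratio under 0.6 were Mrpl20, Mrpl34, Mrpl44, Mrps18a and Mrps9. Of these 2 were occupied, Mrpl20 and Mrpl34, a number too small to set against the 9.67%. None of the 5 had a summit within 1 kb of a start, against 4.37% of all genes with a ratio under 0.6.

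**Figure D1:**
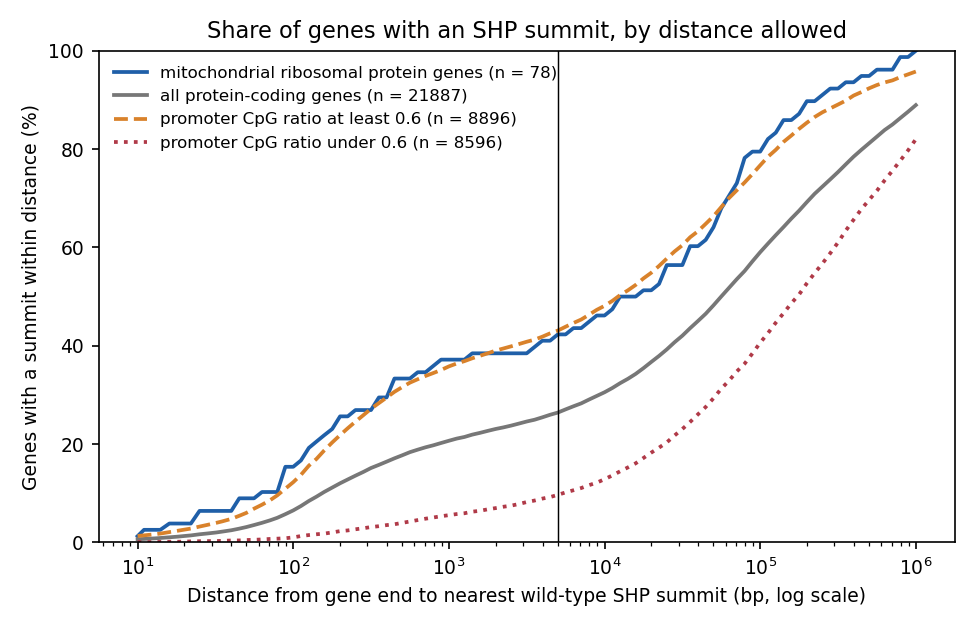
Share of genes (percent, y axis) with a wild-type SHP summit within a given distance of either gene end (bp, log x axis), for 78 mitochondrial ribosomal protein genes, all 21887 protein-coding genes, and genes with a promoter CpG ratio of at least or under 0.6; the vertical line marks 5 kb. At 5 kb the members (42.3%) lay beside the CpG-rich genes (43.1%) and above all protein-coding genes (26.4%).

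Occupied members had promoters slightly richer in GC and CpG than the others. The median GC content was 61.7% in 29 occupied members and 57.7% in 40 others, and the median CpG ratio was 0.878 (interquartile range 0.722 to 0.969) and 0.776 (0.690 to 0.856). These ranges overlap, and the difference has no test. The highest value over the starts of a gene was taken, which favours genes with several. The members with more than 1 start were Mrpl48, Mrpl2 and Mrps16, all occupied, with CpG ratios of 1.09, 0.985 and 0.943. Across all protein-coding genes the medians were further apart, with a CpG ratio of 0.832 in occupied genes and 0.441 in the rest. Members as a set had a median ratio of 0.820, against 0.610 for all protein-coding genes.

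**Figure D2:**
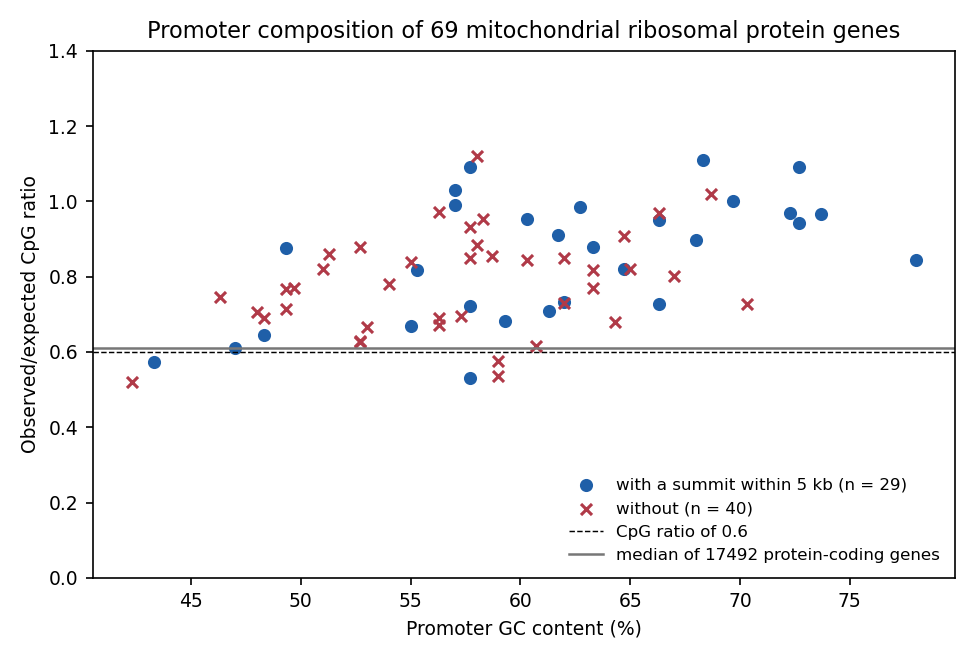
Observed/expected CpG ratio (y axis) against GC content (percent, x axis) of promoter windows for the 69 mitochondrial ribosomal protein genes with a sequence; each point is a gene, with circles for the 29 occupied genes and crosses for the 40 others. Both kinds of gene overlap, and 64 of 69 lie at or above the dashed line at 0.6.

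The peaks at members were of ordinary strength for this list. The enrichment value is the signal that the authors deposited for each peak, on a scale the sources do not define, and serves here only to rank peaks within the list. The 38 peaks within 5 kb of members had a median enrichment value of 5.87 (interquartile range 5.33 to 6.56), and the 4869 peaks within 5 kb of any protein-coding gene had a median of 5.64 (4.92 to 6.42). Medians of −log10 p were 16.2 and 15.1. Of the 38 peaks, 12 were above the upper quartile (6.46) and 5 below the lower quartile (4.93) of all 5775 peaks, and their values ran from 2.84 to 7.87. Taking the highest peak of each occupied gene, 5 members had a value above 7, 11 from 6 to 7, 15 from 5 to 6 and 2 below 5. For 37 of the 38 peaks the pair of enrichment value and −log10 p was identical to that of another peak in the list, as for 89.9% of all peaks, so peaks with such pairs share a rank.

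**Figure D3:**
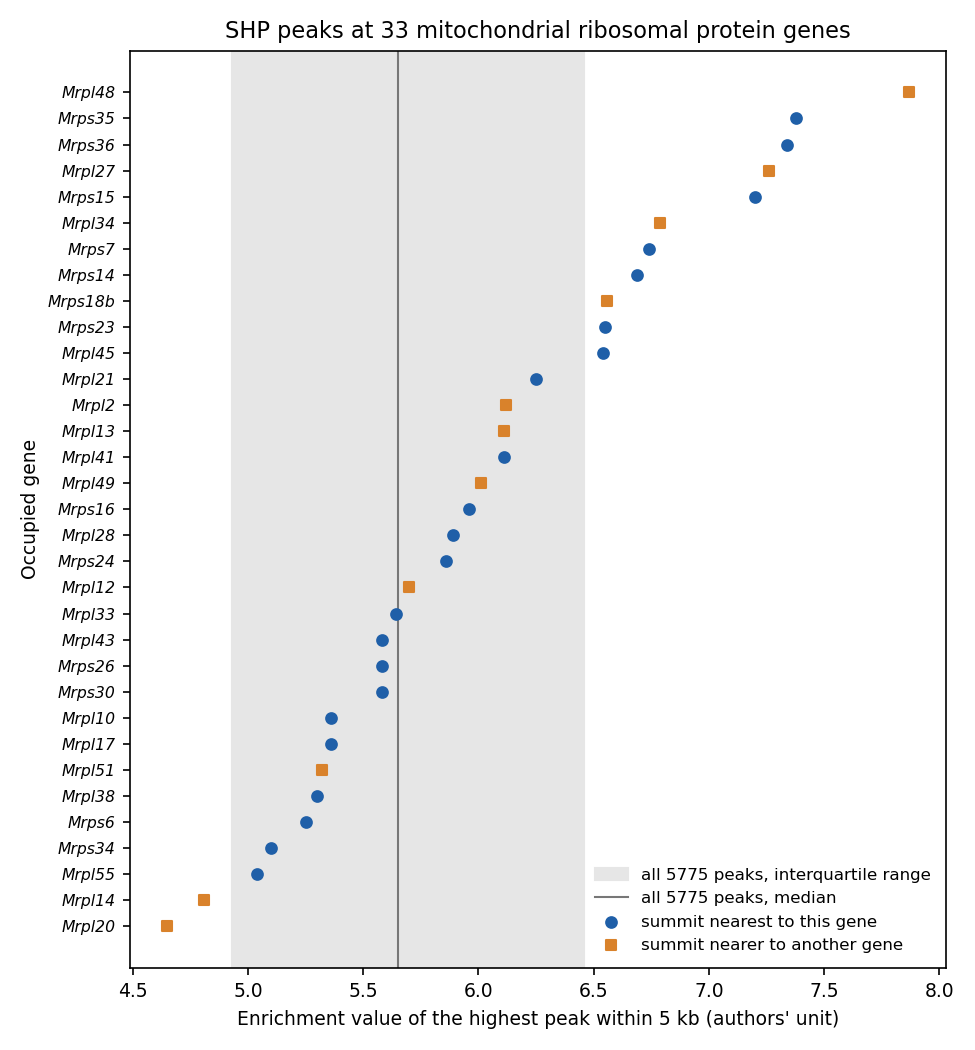
Enrichment value (authors' unit, x axis) of the highest wild-type SHP peak within 5 kb of each of the 33 occupied genes (y axis); circles are summits with no other protein-coding gene end nearer, squares are summits nearer to another gene, and the band and line give the interquartile range and median of all 5775 peaks. Values run from 4.65 at Mrpl20 to 7.87 at Mrpl48.

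Among genes with a small subunit symbol the highest value within 5 kb of a gene end was at Mrps35. This gene encodes a protein specific to mitochondria. Its peak at chr6:147042633-147043324 had an enrichment value of 7.38 (rank 443) and a summit 147 bp inside the gene, with no other gene end within 5 kb. Mrps36 followed with 7.34 (rank 467) at chr13:100744047-100744756, where the summit lay 349 bp after the start. Mrps15, a protein with a bacterial counterpart, had a value of 7.20 (rank 549) at chr4:126046769-126047528, 11 bp before its start. The nearest other gene there was Csf3r, a cytokine receptor gene, at 1942 bp. All 3 summits were within 349 bp of the genes' own ends and above the upper quartile of the list.

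Mrps7 and Mrps14 encode proteins of the head of the small subunit. The Mrps7 peak (6.74, rank 1013) at chr11:115603395-115604650 lay 180 bp before the start and 557 bp from Gga3, which encodes an adaptor of Golgi transport. The Mrps14 peak (6.69, rank 1079) at chr1:160194960-160195613 lay 251 bp after the start with no other gene in reach. Mrps18b, an S18-related protein, had a value of 6.56 (rank 1260) at chr17:35916295-35917473. That summit was 618 bp before its start and 546 bp from Ppp1r10, a regulator of a protein phosphatase.

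Mrps23 had more than the counted peaks. Summits 404 and 754 bp outside its annotated end, in peaks at chr11:88193540-88194099 (rank 1276) and chr11:88193016-88193410 (rank 5738), had values of 6.55 and 2.84 and lay 438 and 788 bp from Cuedc1. Its annotated start is further inside the gene model, and a peak at chr11:88203749-88204616, 80 bp after that start, had a higher value of 7.52 (rank 353). That peak is over 5 kb from either gene end, so the occupancy rule does not count it. Counting from starts therefore raises the value of this gene.

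The other occupied genes with a small subunit symbol had values from 5.10 to 5.96. Mrps16 had 5.96, with the summit 19 bp before a start, and Mrps24 had 5.86, with the summit 110 bp after it. Mrps26 (chr2:130563280-130564361) and Mrps30 (chr13:118386540-118387340) both had 5.58 at rank 3035, with summits 24 bp before and 60 bp after the start and no other gene end within 5 kb. The Mrps6 peak at chr16:92057580-92058938 had 5.25 (rank 3711), with a summit 3 bp after its start and 17 bp from Slc5a3, a myo-inositol transporter gene. The Mrps34 peak at chr17:24894538-24895691 had 5.10 (rank 4008), with a summit 42 bp inside the gene, 75 bp from Eme2, and with 4 other genes within 5 kb. Each of these 6 summits was nearest to the ribosomal protein gene, by a narrow margin at Mrps6 and Mrps34.

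Of the large subunit genes, Mrpl48 had the highest value of all members. Mrpl48 belongs to the central protuberance, where the subunits meet. Its peak at chr7:100607239-100608781 had a value of 7.87 (rank 230) and lay 153 bp after the nearest of 4 annotated starts. It lay 106 bp from Rab6a, which encodes a Golgi GTPase, and 832 bp from the end of Mrpl48. Mrpl45, which anchors the ribosome to the inner membrane at the tunnel exit, had a value of 6.54 (rank 1289) at chr11:97315580-97315971, 3 bp before its annotated start, 790 bp inside its gene end and with no other gene end within 5 kb. Mrpl21, with a bacterial counterpart, had 6.25 (rank 1770) at chr19:3282600-3283259, 132 bp before its start, 87 bp from its gene end and 100 bp from Ighmbp2, a helicase gene.

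Several large subunit genes counted as occupied through peaks that lay at the far side or at a neighbour. Mrpl27, whose bacterial counterpart reaches towards the peptidyl transferase centre, had a value of 7.26 (rank 513) at chr11:94665468-94666554, but this summit was 12641 bp from its start, 4500 bp beyond its far end and 2587 bp from Xylt2. Mrpl34 had peaks of 6.79 (chr8:71468926-71470121, rank 930) and 6.73 (chr8:71462782-71463950, rank 1026). The first lay 3567 bp beyond its far end and 148 bp from Dda1, the second 1346 bp before its start and 1127 bp from Abhd8. Mrpl12, a protein of the stalk that recruits translation factors, had a value of 5.70 (rank 2815) at chr11:120491184-120492364, with the summit 7399 bp from its start and 199 bp from Slc25a10, the mitochondrial dicarboxylate carrier gene. Mrpl20 had 4.65 (rank 4799) at chr4:155812197-155813138, with the summit 9626 bp from its start and 2285 bp from Ccnl2. In all, 4 occupied members had their nearest summit over 1 kb away (Mrpl27, Mrpl20, Mrpl12 and Mrpl34).

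In 11 of the 33 occupied genes every counted summit was nearer to another protein-coding gene. Besides Mrpl48, Mrps18b, Mrpl27, Mrpl34, Mrpl12 and Mrpl20 these were Mrpl2, Mrpl13, Mrpl14, Mrpl49 and Mrpl51. Mrpl2, whose bacterial counterpart helps form the peptidyl transferase centre, had a peak of 4.31 (chr17:46645028-46646524, rank 5142) that was 66 bp after a start, 131 bp from its gene end and 114 bp from Klc4. A second Mrpl2 peak of 6.12 (chr17:46650228-46651168, rank 1943) was 501 bp beyond its far end and 295 bp from Cul7. The Mrpl49 peak of 5.64 (chr19:6057408-6058419, rank 2930) lay 180 bp before its start and 12 bp from Fau, which encodes a protein of the cytosolic ribosome. The other Mrpl49 peak, of 6.01 (chr19:6061091-6062393, rank 2196), lay 3609 bp before its start and 157 bp from Znhit2. The summit near the Mrpl2 start was almost equally far from both genes. The Mrpl13 peak of 6.11 (chr15:55557146-55557809, rank 2030) was 327 bp outside that gene and 235 bp from Mtbp. The Mrpl51 peak of 5.32 (chr6:125191427-125192352, rank 3581) was 419 bp before its start and 319 bp from the condensin gene Ncapd2. The Mrpl14 peak of 4.81 (chr17:45685141-45686752, rank 4513) was 411 bp inside its gene end and 210 bp from Tmem63b. With each summit given to its nearest gene only, 22 of 78 members were occupied (28.2%, against 21.0% of all protein-coding genes). These were 10 of 49 genes with a large and 12 of 29 with a small subunit symbol. Among CpG-rich genes that count left 19 of 64 members (29.7%) and 35.9% of all genes.

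The remaining occupied large subunit genes had a summit within 163 bp of the start or nearest end. Mrpl41 had a value of 6.11 (chr2:24974626-24975631, rank 2030) 16 bp after the start and 908 bp from Pnpla7. Mrpl28 had 5.89 (chr17:26123285-26123842, rank 2419) 42 bp after the start and 291 bp from Pgap6. Mrpl33 (5.64) and Mrpl17 (5.36), a protein of the exit tunnel, had summits 121 and 163 bp after the start with no other gene end within 5 kb. Mrpl10, of the stalk, had 5.36 (chr11:97041134-97041927, rank 3531) 86 bp before the start and 127 bp from Lrrc46. Mrpl38, of the central protuberance, had 5.30 (chr11:116138363-116138982, rank 3618) 23 bp inside an end. Mrpl55 had 5.04 (chr11:59201880-59202939, rank 4091) 83 bp after the start, and a second peak of 4.17 (chr11:59208077-59209559, rank 5255) 120 bp from 2310033P09Rik. Mrpl43 had 5.58 (chr19:45005537-45006771, rank 3035) 87 bp before the start. That summit also lay 866 bp from Twnk, which encodes the helicase that unwinds mitochondrial DNA. No peak was shared by 2 members.

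Where a start was annotated, summits clustered around it on both sides. Of the 29 occupied members with a promoter sequence, 22 had a summit within 300 bp of an annotated start and 25 within 1 kb. Of the 24 whose summit nearest to a gene end lay within 1 kb of a start, 12 lay before it and 12 after it, from 618 bp before to 349 bp after, around a median of 0 bp. The median distance to the nearest gene end was 147 bp in occupied members and 238 bp in all occupied protein-coding genes. The occupied members nearest to the 5 kb limit were Mrpl27 (4500 bp), Mrpl20 (3673 bp) and Mrpl12 (3282 bp), and the closest beyond it were Mrps17 (6287 bp), Mrpl35 (7608 bp) and Mrps27 (8511 bp).

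**Figure D4:**
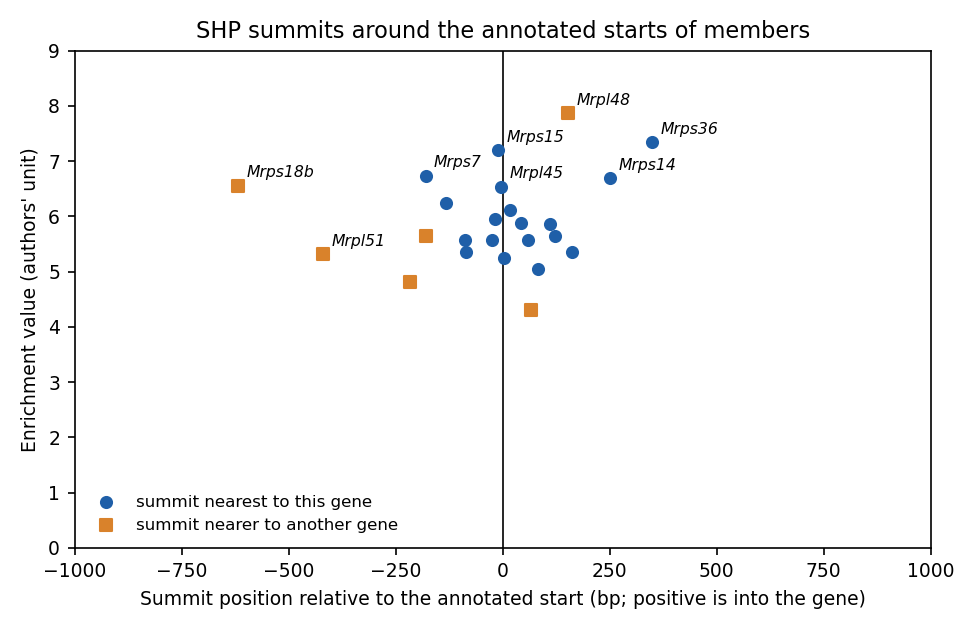
Enrichment value (authors' unit, y axis) against the position of the summit relative to the nearest annotated start (bp, x axis, positive into the gene), for 24 summits within 1 kb of a start of a mitochondrial ribosomal protein gene; squares are nearer to an end of another gene. Summits run from 618 bp before (Mrps18b) to 349 bp after the start (Mrps36), 12 on each side.

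Members were short and lay close to other genes. Their median length was 7690 bp, against 17200 bp for protein-coding genes. An end of another protein-coding gene lay within 5 kb of an end of 59 of 78 members (75.6%), against 46.0% of all protein-coding genes. With such a neighbour 29 of 59 members were occupied (49.2%, against 36.8% of all such genes), and without it 4 of 19 were (21.1%, against 17.5%), namely Mrpl17, Mrps24, Mrps26 and Mrps30. Among CpG-rich genes the shares were 23 of 49 members (46.9%) against 46.6% of all genes with a neighbour, and 4 of 15 members (26.7%) against 38.1% without one. Of the 38 peaks at members 28 (73.7%) lay within 5 kb of more than 1 gene, against 29.4% of the peaks near any protein-coding gene. A peak near several genes is more likely to be reached from a chosen gene, so these shares are not directly comparable. The part of neighbouring genes in the members' occupancy was not tested.

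On chromosome 11, picked after its values were seen, 9 of 11 members were occupied (81.8%, against 35.2% of its protein-coding genes): Mrpl10, Mrpl12, Mrpl27, Mrpl38, Mrpl45, Mrpl55, Mrps7, Mrps23 and Mrps24. Outside chromosome 11, 24 of 67 members were occupied (35.8%, against 25.7%). None of the 10 members on chromosomes 3, 9 and 10 was, where 23.0%, 27.6% and 29.9% of protein-coding genes were occupied. With 2 to 5 members on each of these 3 chromosomes, such counts say little about them.

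The 45 members without a summit within 5 kb lay a median of 63100 bp from one, against 132000 bp for all unoccupied protein-coding genes. Mrps17, Mrpl35 and Mrps27, whose protein carries RNA-binding repeats, were within 10 kb. Another 14 were within 50 kb, namely Mrps21 (11074 bp), Mrpl53 (11403 bp), Mrps31, Mrps18c, Mrpl15, Mrpl54, Mrpl4, Mrps18a, Mrpl24, Mrpl52, Mrpl40, Mrps2, Mrps12, which encodes the protein at the decoding centre, and Mrps9. Within 100 kb lay 12 more, Mrps11, Mrpl23, Mrps10, Mrpl57, Mrps33, Mrpl58, Mrpl46, Mrpl18, Mrpl50, Mrpl44, Mrps25 and Mrpl11. Mrpl58 is a peptidyl-tRNA hydrolase that rescues stalled ribosomes. Mrpl46 and Mrps11 start 42 bp apart on opposite strands of chromosome 7. The same summit was nearest to both, 63995 bp from the Mrpl46 start and 54096 bp from the far end of Mrps11. The other 16 were Mrpl39, Mrpl37, Mrpl22, Mrpl9, Mrps28, Mrps5, Mrpl16, Mrpl47, Mrpl30, Mrpl36, Mrps22, Mrpl42 (438505 bp), Mrpl32 (546277 bp), Mrpl1 (730725 bp), Mrpl3 (790715 bp) and Mrpl19 (973484 bp).

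Working sites were assigned by hand to a few members each, after peaks were seen, so the lists may be incomplete. They are given as a description beside the 26.4% of all protein-coding genes and 43.1% of CpG-rich genes that were occupied. At the stalk Mrpl10 and Mrpl12 were occupied and Mrpl11 was not. Around the exit tunnel Mrpl17 and Mrpl45 were occupied, and Mrpl4, Mrpl22, Mrpl23, Mrpl24 and Mrpl47 were not. In the central protuberance Mrpl38 and Mrpl48 were occupied, and Mrpl40, Mrpl46 and Mrpl58 were not.

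The promoters of members were searched on both strands for 10 motifs, and a gene with several starts counted once where any of its windows had the match. Factors of the ETS family, NRF1 and YY1 are known regulators of nuclear genes for mitochondrial proteins. The ETS motif, CCGGAAG, was in 26 of 69 members (37.7%), in 12.9% of all protein-coding genes with a sequence and in 21.1% of CpG-rich genes. It was in 12 of 29 occupied members (41.4%) and 14 of 40 other members (35.0%). The YY1 motif, AAGATGGC, was in 12 of 69 members (17.4%), against 3.57% of all and 5.60% of CpG-rich genes. It was in 3 occupied members, Mrps7, Mrps24 and Mrpl49 (10.3%), and in 9 others (22.5%). The NRF1 motif, GCATGCGC, was in 8 members (11.6%), 4 occupied and 4 not, against 3.94% of all and 6.87% of CpG-rich genes. The shares of these motifs were above those of CpG-rich genes at large in both occupied and other members. For NRF1, and for YY1 in occupied members, they rest on 3 or 4 genes. The YY1 share was lower in occupied than in other members.

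The SP/KLF motif GGGCGG, common in CpG-rich promoters, was in 34 of 69 members (49.3%), against 49.2% of all and 76.5% of CpG-rich genes. It was in 17 of 29 occupied members (58.6%) and 17 of 40 others (42.5%). Of CpG-rich genes, 81.0% of occupied and 73.2% of other genes had it. The members with more than 1 start, Mrpl48, Mrpl2 and Mrps16, were occupied and all had it. The hexamer AGGTCA is the core sequence that many nuclear receptors bind. It was in 11 members (15.9%), against 16.7% of all and 12.8% of CpG-rich genes. The occupied members with it were Mrpl12, Mrpl43, Mrps15 and Mrps30 (4 of 29, 13.8%), and 7 of 40 others had it (17.5%). The extended form CAAGGTCA, which contains that hexamer, was in Mrps15 among occupied and Mrps21 among other members (2.90% of 69, against 1.56% of all and 1.07% of CpG-rich genes). The hexamer was thus about as frequent in members as in all genes.

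The E-box of TFEB and USF, CACGTG, was in 5 members (7.25%), of which Mrpl2 and Mrpl20 were occupied, against 8.91% of all and 12.9% of CpG-rich genes. The NF-Y motif, CCAAT, was in 27 members (39.1%), against 42.3% and 42.2%. The TATA box, searched as TATAAA, was in 5 members (7.25%), against 14.8% of all genes and 7.94% of CpG-rich genes. The CREB/ATF motif, TGACGTCA, was in occupied Mrpl49 and unoccupied Mrpl16 (2.90%), against 2.54% and 4.08%. None of these differences was tested.

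**Figure D5:**
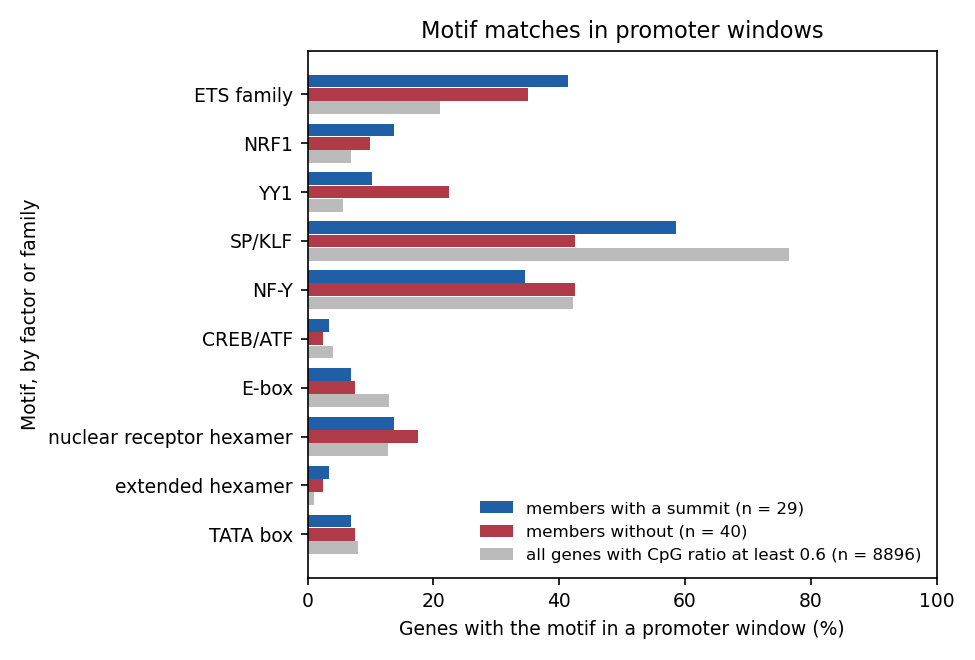
Share of genes (percent, x axis) with a match to each of 10 motifs (y axis) in a promoter window, for 29 occupied members, 40 other members and all 8896 CpG-rich protein-coding genes. The ETS bars of both member groups (41.4% and 35.0%) are longer than that of CpG-rich genes (21.1%), and the SP/KLF bars (58.6% and 42.5%) are shorter (76.5%).

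Other genes of mitochondrial gene expression were occupied at 34 of 86 (39.5%), against 26.4% of all protein-coding genes and 43.1% of CpG-rich ones. Of the 70 with a promoter sequence 61 were CpG-rich. Within 1 kb of a gene end lay summits of 29 of the 86, against 20.7% of all protein-coding genes. Among the 16 translation factors 6 had one that near. The nearest summit lay 1237 bp from Mtif3, 1207 bp from Mtif2, 2264 bp from Tsfm, 1504 bp from Polg and 3920 bp from Mpv17l2. The Twnk summit, 866 bp away, was that of the Mrpl43 peak. Of 5 ribosomal proteins with other names, Chchd1 (5.76) and Gadd45gip1 (4.93) were occupied and Dap3, Ptcd3 and Aurkaip1 were not. Of 16 translation factors 9 were (56.2%), led by the initiation factor Mtif3 (6.66), the recycling factor Gfm2 (6.35) and the ribosome recycling factor Mrrf (6.30), with Mtres1, Guf1, Mtif2, Pdf, Mtrf1l and Tsfm. Of 30 assembly and ribosomal RNA factors 9 were, led by Noa1 (6.85), Ngrn (6.30) and Mterf3 (6.22), with Mpv17l2, Eral1, Gtpbp10, Dhx30, Grsf1 and Mtg2. Of 20 genes for mitochondrial tRNA charging 7 were (35.0%), led by the amidotransferase subunit Gatc (8.76), Mars2 (6.94) and Ears2 (6.48), with Yars2, Cars2, Rars2 and Fars2. Of 15 genes of mitochondrial DNA upkeep, transcription and RNA processing 7 were (46.7%), led by the single-stranded DNA-binding protein Ssbp1 (10.8), the polymerase Polg (7.45) and Twnk (5.58), with Polg2, Top1mt, Polrmt and Trmt10c.

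The share of occupied members was set beside those of related families and of all protein-coding genes (26.4%, and 43.1% of CpG-rich genes). Genes with cytosolic ribosomal protein symbols, a rule that also takes some retrogenes, were occupied at 44 of 76 (57.9%), and at 30 of 49 (61.2%) with CpG-rich promoters. Respiratory chain and ATP synthase symbols, including assembly factors, were occupied at 33 of 100, and at 25 of 68 (36.8%) with CpG-rich promoters. With the nearest gene only, 34 of 76 cytosolic (44.7%), 22 of 78 mitochondrial (28.2%) and 20 of 100 respiratory chain genes were occupied, against 21.0% of all protein-coding genes. The median of the highest enrichment value per occupied gene was 5.61 in the cytosolic family, 5.96 in members, 5.64 in the respiratory chain and 5.73 in all occupied protein-coding genes. These differences have no test.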

How the data were processed

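SHP ChIP-seq peak lists of wild-type and SHP knockout intestine were used, 1 per genotype, and the 2 input samples were not analysed here. Per the submitters' processing notes, CASAVA 1.4, BWA and build mm10 were used by the authors. The peak caller, its settings, control, pooling of the sets and depth were not given in the sources used here. The lists have no header; their names record a filter at an irreproducible discovery rate (IDR) of 0.05 for wild type and an overlap filter for the knockout. The deposited signal per peak (enrichment value), −log10 p and −log10 q, and score are the authors' own. The score was not analysed.

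Summits were converted to 1-based positions and compared with gene ends of GRCm38.p6 (chromosomes 1 to 19, X and Y). Promoter sequences, strand and starts came from RefSeq for 17492 protein-coding genes. All 86 names of the pathway lists matched. Members and lists were chosen with earlier results of these data known, and member classes and sites were assigned from textbook knowledge after peaks were seen. Full values were given for the 12 occupied members with the highest enrichment value, summits within 100 bp of an end, and summits over 1 kb away or nearer to another gene. Counting was tested on simulated data. Python 3.11.15, pandas 2.3.3 and scipy 1.17.1 were used. No test was run, since there are no replicate lists. Alternatives changed the window, threshold, assignment and background.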

Additional observations from a re-analysis of the deposited data

How the results depend on the processing

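With 1 list per genotype and no read depth, values have no replicate error, and shares were called moved here when outside the 95% exact binomial interval of the reported share, or counts when changed over 1.5 times. Of members, 64.1% (50 genes, 22 of them Mrps) were occupied within 50 kb, 28.2% with the nearest gene only (10 Mrpl) and 14.1% (11 genes, 4 Mrpl and 7 Mrps) with peaks at or above the 75th percentile of the enrichment value. At or above the median −log10 p, 13 Mrpl genes were left and the member share was 32.1%. All protein-coding genes were occupied at 20.7%, 30.5% and 48.2% within 1, 10 and 50 kb, 14.8% at or above the median −log10 p, 6.89% at or above the 75th percentile, 21.0% with the nearest gene only and 24.3% from starts only. Other backgrounds gave 27.1% (curated genes), 27.9% (autosomal), 43.1% (CpG-rich), 26.9% (members' length range) and, chosen after seeing the data, 36.8% (a neighbouring gene end), 46.6% (both CpG-rich and a neighbour), 25.7% (without chromosome 11) and 28.1% (weighted by the members' chromosomes). Without chromosome 11 the member share was 35.8%, and without Mrps36 it was 41.6%. In each setting that changed window, threshold or assignment for both, the member share was above that of all protein-coding genes. Against CpG-rich genes it was lower within 5 kb (42.3% against 43.1%) and 10 kb (46.2% against 48.1%) of a gene end. It was higher within 1 kb (37.2% against 35.8%), and lower with the nearest gene only (28.2% against 35.9%). No CpG-rich share was counted at the changed peak thresholds. No paired analysis was possible because each group has 1 sample.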
